A study of Bos taurus with 24 samples.

Results

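The genes described here handle fatty acids and the lipid droplet in bovine oocytes. They are all rows of the deposited table whose symbol begins with one of a set of family names (acyl-CoA synthetases ACSL and ACSS, thioesterases ACOT, carnitine palmitoyltransferases CPT1 and CPT2, acyl-CoA dehydrogenases ACAD, hydratases and isomerases ECH, ECI1, ECI2 and HADH, oxidases ACOX, elongases ELOVL, desaturases FADS and SCD, glycerolipid enzymes GPAM, AGPAT, LPIN and DGAT, perilipins PLIN, lipases PNPLA, binding proteins FABP, and ACACA and FASN). This gave 74 genes of the 11306 in the table, each at 1 locus, by a rule that reads the symbol alone. They fell into 12 roles, from activation to acyl-CoA through oxidation and synthesis to storage and release.

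RNA was sequenced from germinal vesicle (GV) oocytes, which are arrested in prophase before maturation, and from metaphase II (MII) oocytes, which have completed maturation. Oocytes were aspirated in May (spring) and July (summer) from crossbred Angus-based Bos taurus beef cows that were neither lactating nor pregnant and aged 3 to 6 years, and each of the 4 groups had 6 libraries. Spring GV and summer GV oocytes were stripped of their cumulus cells soon after collection, whereas spring MII and summer MII oocytes had first matured for 24 h in vitro in medium with FSH and serum, so the MII groups describe maturation in culture and not in the follicle. The RNA of 4 oocytes was pooled for each library, and the study states that a pool corresponds to 1 animal. The same herd was sampled in both seasons, so season is a comparison of May with July.

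The mammalian oocyte stores neutral lipid in cytoplasmic droplets, and the bovine oocyte is known for a dark, lipid-rich cytoplasm. Fatty acids are released from droplets by lipases, joined to coenzyme A, carried into the mitochondrion as carnitine esters and broken down by repeated cycles of dehydrogenation, hydration, a second dehydrogenation and thiolysis. In the other direction, acyl-CoA is elongated, desaturated and esterified to glycerol, the last step being catalysed by the DGAT enzymes, and the perilipins coat the droplet and control access to it.

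The deposited values were FPKM, fragments per kilobase of length scaled to the library size, with the same total in each library. They are therefore shares of that total, so that fewer transcripts per oocyte and a larger rest of the transcriptome cannot be told apart. The study captured and amplified mRNA before sequencing, so a fall or a rise below is one in the share of captured mRNA. Whether capture differed between the stages was not tested. A gene was tested where it exceeded 0.1 FPKM in at least 1 library, which kept 62 of the 74 and 9526 of all genes. Some genes passed this filter only through the stage where they were high. Among them, ACAD11 passed through MII libraries alone, and ACAD9, ACOT7 and PLIN5 through GV libraries alone. A gene was called at an unadjusted limma p under 0.05 with a fold change over 2 on log2(FPKM + 1). Although the study's methods give FPKM per kilobase of exon, the values turned out to be whole numbers of fragments divided by the genomic span of each gene, introns included, because the worth of 1 fragment multiplied by the span was constant within 1 percent for 99.1% of 6382 genes. Shares of fragments with no division by length (FPM, 1 unit being 1 fragment in 1000000) were therefore recovered and tested beside the FPKM, in a fit added after the values had been seen. FPM keeps the same ratios within a gene apart from a new scaling of each library, and 72 of the 74 genes exceeded 1 FPM in at least 1 library. In spring GV replicate 6, 1 fragment was worth 3.08 FPM and was enough to pass, so this count does not measure expression level. Neither scale is per transcript length, so levels of different genes are compared here only in broad order.

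**Figure D1:**
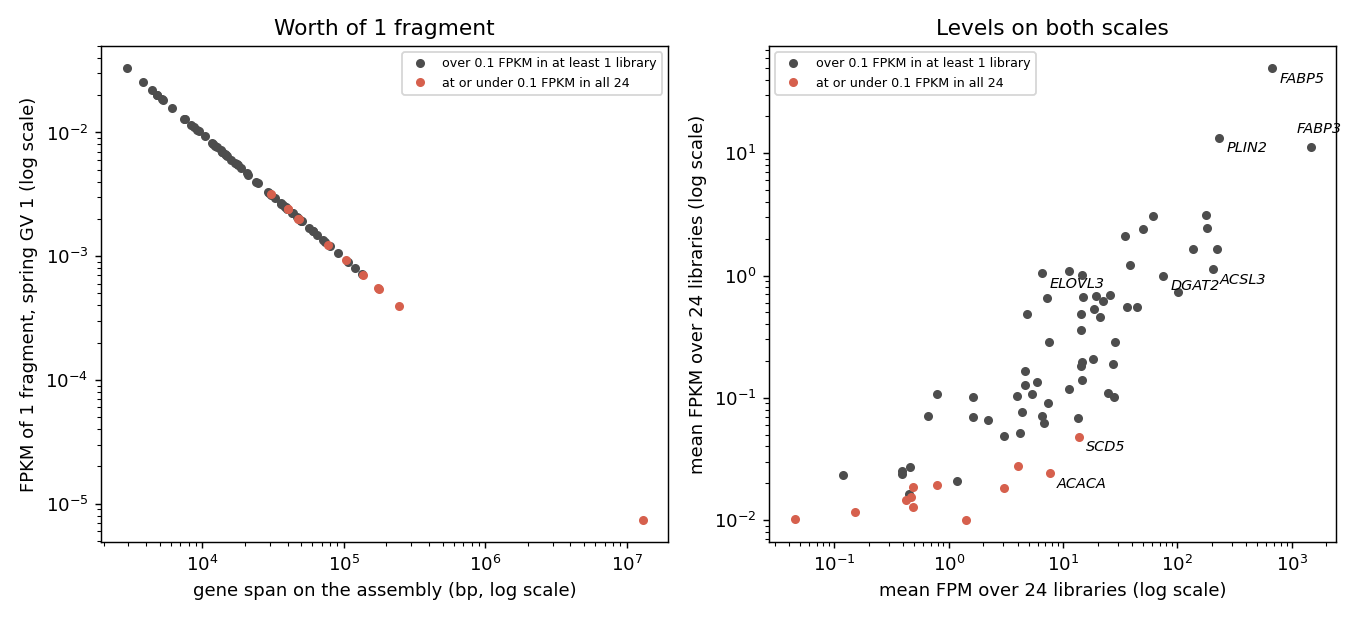
The left panel plots the FPKM that 1 fragment was worth in spring GV replicate 1 against the genomic span of each of the 74 genes (base pairs), both on log scales, and the right panel plots the mean FPKM over 24 libraries against the mean FPM. All points of the left panel lie on 1 falling line, and ACACA and SCD5, in red, never exceeded 0.1 FPKM although they had medians of 19.5 and 49 fragments per library.

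The recovered library totals lay between 324653 and 28207602 fragments with a median of 3836553, the lowest in spring GV replicate 6 and the highest in summer GV replicate 5. Spring MII replicate 6 (1028738 fragments) and summer GV replicate 2 (2543608 fragments) were, with spring GV replicate 6, the 3 libraries of lowest mapping in the study. In these libraries the summed FPKM of 21 cumulus or granulosa cell markers was also raised, at 587, 162 and 123 for spring GV 6, spring MII 6 and summer GV 2, against group medians of 47.8 to 58.4. In summer GV replicate 2 the oocyte markers described next were also high, at 1866 FPKM against a group median of 919, and STAR (64.3) and KRT18 (34.4) made up most of its 123. Spring GV replicate 3 had 163, with 75.7 FPKM of VIM and 13.4 FPKM of the granulosa cell hormone AMH, where the median of its group was 0.215 and 0.127. Most of these sums was KRT8 and KRT18 in spring GV replicate 6, and FSHR, the receptor of FSH, had a group median at the lowest value of the table, 0.01, in all 4 groups. The 11 oocyte markers summed to medians of 797 FPKM in spring GV, 919 in summer GV, 1119 in spring MII and 1456 in summer MII oocytes. Spring GV replicate 6 held the highest value of the 12 GV libraries for 18 of the 74 genes and summer GV replicate 2 for 24.

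The 74 genes together took 66.8 to 146 FPKM of each library, or 0.0770% to 0.168% of its total. FABP5 and FABP3, which bind fatty acids in the cytosol, and PLIN2, the perilipin of most non-adipose cells, were the 3 with the highest mean FPKM over the 24 libraries, at 49.4, 11.2 and 13.4. FABP5 alone made up 18.9% to 71.3% of the sum. The order depended on the scale. FABP3, whose span is 60606 bp, averaged 1462 FPM and so received more fragments than FABP5, whose span is 6063 bp and which averaged 678 FPM. At the other end, 23 of the 74 genes had a median of at most 10 fragments per library, and their values are limited by counting.

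From GV to MII oocytes, both DGAT genes of triglyceride synthesis and the beta-oxidation genes ECHS1, ECI1 and ECI2 fell, and the acyl-CoA synthetase ACSL3 and the droplet coat PLIN2 rose, at an adjusted p under 0.05 in each season. In spring, 1 of the 62 tested genes was called higher and 2 lower in MII oocytes, where 3.57% and 8.25% of all tested genes were called. In summer, none was called higher and 4 were called lower, against 2.20% and 9.26% of all genes. At a limma adjusted p under 0.05, 3 were higher and 10 lower in spring, against a background of 9.45% and 14.7%, and 4 were higher and 16 lower in summer, against 7.67% and 23.1%. These shares were near those of all genes. The median log2 fold change was -0.04 in spring and -0.06 in summer, where all genes had -0.03 and -0.02.

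On the FPM scale, 4 genes were called higher and 19 lower in spring, against 8.22% and 24.3% of the 11063 genes, and 4 were higher and 26 lower in summer, against 4.11% and 27.2%. Called in both seasons were 3 higher genes (ACAD11, ACSL3 and ELOVL4) and 18 lower genes, the latter being 94.7% of those of spring and 69.2% of those of summer. Of all genes called lower, the shared ones were 84.3% of spring and 75.4% of summer, and of all called higher they were 29.0% and 58.0%, where the members had 75% in each season. The medians were -0.37 and -0.59, and those of all genes were -0.33 and -0.31. Most members lie far below the pseudocount of 1 FPKM, and on the FPKM scale the number called was 15 in spring and 17 in summer with a pseudocount of 0.1 and 25 and 28 with none. None of the 28 genes with an unadjusted p under 0.05 in spring, and none of the 28 in summer, changed its direction under quantile normalization, median-of-ratios scaling, FPM, a pseudocount of 0.1 or no pseudocount. Restricted to the 15 genes that averaged 1 FPKM or more, the medians were positive, 0.16 in spring and 0.11 in summer. The medians of all genes at that level are not given here, so the sign is not read as a trait of the members.

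**Figure D2:**
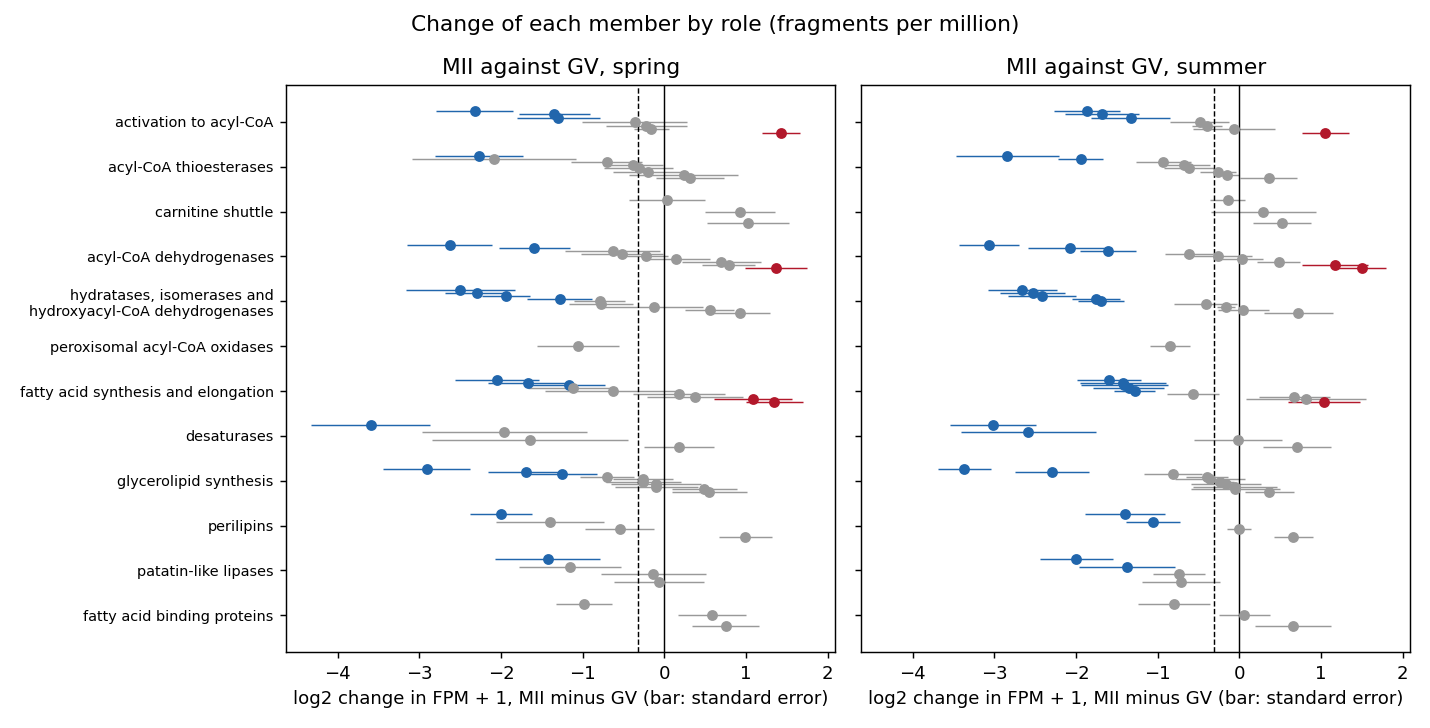
Each point is 1 of 71 genes, placed by its role and by its log2 change in FPM + 1 from GV to MII oocytes, in spring (left) and summer (right), with its standard error; blue and red mark genes called lower and higher, the dashed line the median of all genes. Of the 9 hydratases, isomerases and hydroxyacyl-CoA dehydrogenases, 4 were called lower in spring and 5 in summer, where 24.3% and 27.2% of all genes were, and none was called higher, and the carnitine shuttle had no called gene in either season.

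Fatty acid binding proteins carry fatty acids through the cytosol. FABP5 (chromosome 14, 46644559 to 46650622 on UMD3.1.1) lay between 41.9 and 91.3 FPKM in spring GV (median 59.3), 23.5 and 92.8 in summer GV (median 54.6), 21.6 and 48.3 in spring MII (median 40.5) and 21.1 and 55.4 in summer MII oocytes (median 38.9). The stages overlapped in both seasons, although the medians were lower in MII. Its log2 fold change was -0.69 ± 0.26 (standard error) in spring (adjusted p of limma 0.0705, exact permutation p = 0.0195) and -0.57 ± 0.37 in summer (adjusted p = 0.254). As FPM, FABP5 fell in spring after adjustment (-0.98 ± 0.34, adjusted p = 0.0436) and not in summer (adjusted p = 0.180). FABP3 (chromosome 2, 122723225 to 122783831) moved the other way, from a median of 7.45 FPKM (2.57 to 9.54) in spring GV to 13.9 (6.91 to 17.1) in spring MII oocytes and from 10.3 (2.25 to 12) to 14.0 (11.2 to 19.5) in summer. The lowest values of both GV groups, 2.57 and 2.25, were those of the shallow spring GV replicate 6 and of summer GV replicate 2. The rise of FABP3 had an adjusted p of 0.0385 in spring (log2 fold change 0.91 ± 0.29) and 0.0884 in summer (0.76 ± 0.32), but on the FPM scale the adjusted p was 0.188 and 0.3. FABP4 and FABP7 had medians of 0 and 2 fragments per library.

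Acyl-CoA synthetases activate fatty acids for every later step. ACSL3 (chromosome 2, 111797170 to 111887646), which resides at the endoplasmic reticulum and at nascent lipid droplets, rose in both seasons. Its values were 0.371 to 0.726 FPKM in spring GV (median 0.464) and 0.894 to 2.66 in spring MII oocytes (median 1.61), and the groups did not overlap. In summer they were 0.376 to 1.25 (median 0.677) and 1.10 to 2.18 (median 1.61), with overlap at the margin. The log2 fold change was 0.80 ± 0.17 in spring (limma adjusted p = 0.00479, exact permutation p = 0.00216, the smallest that 6 against 6 libraries allow) and 0.62 ± 0.16 in summer (adjusted p = 0.0122, permutation p = 0.00433). As FPM, ACSL3 was 2.73 times as high in spring MII and 1.97 times as high in summer MII oocytes. The other synthetases did not follow it. ACSL5, ACSL6 and ACSS2 were lower in MII oocytes on the FPM scale in both seasons, with log2 fold changes of -1.3, -2.32 and -1.35 in spring and -1.33, -1.87 and -1.68 in summer. ACSL6 is among the genes that did not exceed 0.1 FPKM and had a median of 9.5 fragments per library, and ACSL5 passed the adjusted threshold in summer alone (adjusted p = 0.0694 and 0.0467).

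Thioesterases release the fatty acid from coenzyme A. ACOT9, the mitochondrial thioesterase with the highest FPKM of the family, had medians of 1.45 and 2.05 FPKM in spring and summer GV and 2.57 and 3.23 FPKM in spring and summer MII oocytes. Its range in spring GV reached 10.8 FPKM in replicate 6, and no difference between stages passed the test (log2 fold changes 0.36 ± 0.40 and 0.37 ± 0.33). ACOT7, a cytosolic enzyme of long-chain acyl-CoA, fell from a median of 0.180 FPKM (0.0570 to 0.410) to 0.0523 (0.0220 to 0.0712) in spring and from 0.133 (0.108 to 0.202) to 0.0468 (0.0365 to 0.0526) in summer. In summer all MII libraries were below all GV libraries. Because these values are far below 1 FPKM, the log2 fold changes were only -0.19 ± 0.06 and -0.13 ± 0.02 (adjusted p = 0.0354 and 0.000720), whereas on the FPM scale they were -2.27 ± 0.54 and -1.94 ± 0.28 (adjusted p = 0.00612 and 0.000166). ACOT8, the peroxisomal thioesterase, passed in summer (FPM log2 fold change -2.84 ± 0.63, adjusted p = 0.00322) and not in spring (-2.08 ± 1.01, adjusted p = 0.135), where its values in GV oocytes ran from the lowest of the table to 2.58 FPKM. ACOT2 and ACOT4 are close paralogs whose reads could be divided between them, and neither was called in the season and stage comparisons on either scale.

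The carnitine shuttle moves long-chain acyl groups into the mitochondrion. CPT1A, its rate-controlling enzyme on the outer membrane, had medians of 0.0598 and 0.0492 FPKM in spring and summer GV and of 0.143 and 0.0984 FPKM in the MII groups, with ranges that overlapped widely, up to 0.575 FPKM in spring MII replicate 6. CPT2, on the inner membrane, had medians of 0.182 and 0.290 FPKM in GV and of 0.556 and 0.531 FPKM in MII oocytes. Its log2 fold change was 0.35 ± 0.14 in spring (limma adjusted p = 0.0877) and 0.23 ± 0.15 in summer (adjusted p = 0.252), so neither gene passed after adjustment. CPT1B, the isoform of muscle, stayed near 0.1 FPKM in each group, with a median of 6 fragments per library.

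Acyl-CoA dehydrogenases catalyse the first step of the oxidation cycle, each for a range of chain lengths. ACAD9 (chromosome 22, 59573116 to 59609270), which also serves in the assembly of respiratory complex I, fell in both seasons without overlap of the groups. It went from 0.0846 to 0.689 FPKM (median 0.269) in spring GV to 0.0279 to 0.0763 (median 0.0480) in spring MII oocytes and from 0.226 to 0.456 (median 0.309) to 0.0198 to 0.0720 (median 0.0426) in summer. On the FPM scale this was -2.63 ± 0.52 in spring (limma adjusted p = 0.00196) and -3.06 ± 0.37 in summer (adjusted p = 3.96e-05), and on log2(FPKM + 1) it was -0.31 ± 0.09 and -0.34 ± 0.04 (adjusted p = 0.0242 and 7.20e-05). The short-chain enzyme ACADS fell as well (FPM log2 fold changes -1.59 and -2.08, adjusted p = 0.0147 and 0.00634). The very-long-chain enzyme ACADVL, highest of the family in FPKM, had medians of 0.742 in spring GV, 1.29 in summer GV, 0.395 in spring MII and 0.468 in summer MII oocytes. It passed in summer (log2 fold change -0.64 ± 0.17, adjusted p = 0.0109), when all MII libraries lay below all GV libraries, and not in spring (-0.22 ± 0.16, adjusted p = 0.318), and the test of the difference between the seasons gave an unadjusted p of 0.0777.

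Not all dehydrogenases fell. ACAD11 (chromosome 1, 137993897 to 138112992), which acts on long-chain acyl groups, rose from a median of 0.0314 FPKM (0.0238 to 0.0530) to 0.0796 (0.0528 to 0.216) in spring and from 0.0296 (0.0268 to 0.0594) to 0.112 (0.0550 to 0.123) in summer, with the groups touching only at their margins. As FPM it was 2.96 and 3.17 times as high in MII as in GV oocytes (adjusted p = 0.0164 and 0.00122). The medium-chain enzyme ACADM was called higher on the FPM scale in summer (log2 fold change 1.17 ± 0.40, adjusted p = 0.0359) and not in spring (0.69 ± 0.48, adjusted p = 0.296), where spring GV replicate 3 had 0.443 FPKM and the next GV library 0.163. ACADSB, ACAD8, ACAD10 and ACADL were called in neither season.

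The hydratases, isomerases and hydroxyacyl-CoA dehydrogenases, which catalyse the steps after the first dehydrogenation, had 9 members fitted on the FPM scale, of which 4 were called lower in both seasons, as were 2267 of all 11063 genes. ECHS1 (chromosome 26, 25856475 to 25865609), the short-chain enoyl-CoA hydratase of the mitochondrial matrix, was called in both seasons. It had 2.71 to 8.32 FPKM (median 4.07) in spring GV and 1.09 to 1.78 (median 1.3) in spring MII oocytes, and 2.77 to 12.1 (median 3.43) in summer GV and 0.335 to 2.18 (median 1.12) in summer MII oocytes. All MII libraries lay below all GV libraries of their season. The log2 fold change was -1.20 ± 0.22 in spring and -1.47 ± 0.31 in summer (limma adjusted p = 0.00261 and 0.00388, exact permutation p = 0.00216 in both).

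ECI2 and ECI1 are enoyl-CoA isomerases, which shift double bonds of unsaturated fatty acids so that oxidation can go on. ECI2 (chromosome 23, 49909574 to 49924202) had medians of 1.61 FPKM (0.778 to 2.54) in spring GV and 0.356 (0.231 to 0.551) in spring MII oocytes, and 2.07 (1.05 to 4.81) in summer GV and 0.312 (0.214 to 0.982) in summer MII oocytes. The stages did not overlap in either season. Its log2 fold change was -0.93 ± 0.18 in spring, just short of a fold change of 2, and -1.11 ± 0.23 in summer, when it was called (adjusted p = 0.00338 and 0.00351), and without summer GV replicate 2, its highest library, the summer value was -0.93. The difference between the seasons had a limma p of 0.538. ECI1 (chromosome 25, 1767070 to 1779724) fell from a median of 1.23 FPKM (0.145 to 2.10) to 0.127 (0.0848 to 0.199) in spring and from 0.580 (0.342 to 0.898) to 0.0711 (0.0194 to 0.193) in summer, with adjusted p = 0.0375 and 0.000874, and the groups were apart in summer alone.

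HADHA and HADHB encode the subunits of the mitochondrial trifunctional protein and lie next to each other on chromosome 11. In summer both fell, HADHA from a median of 0.941 FPKM (0.682 to 1.14) to 0.299 (0.213 to 0.518) without overlap and HADHB from 0.870 (0.745 to 1.70) to 0.310 (0.171 to 0.756), with limma log2 fold changes of -0.53 ± 0.11 and -0.52 ± 0.14 (adjusted p = 0.00251 and 0.0142). In spring HADHA went from 0.498 (0.422 to 0.920) to 0.316 (0.293 to 0.745) FPKM, which did not pass (-0.16 ± 0.12, adjusted p = 0.331), and HADHB from 0.506 (0.287 to 1.09) to 0.265 (0.196 to 0.462), which passed on the FPM scale (adjusted p = 0.0262) but not on log2(FPKM + 1) (adjusted p = 0.0829). HADH, the hydroxyacyl-CoA dehydrogenase of shorter chains, differed in direction from these 2 genes, with log2 fold changes of 0.65 ± 0.28 and 0.53 ± 0.32 and adjusted p of 0.109 and 0.232. ECHDC1, ECHDC2 and ECHDC3 were called in neither season.

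**Figure D3:**
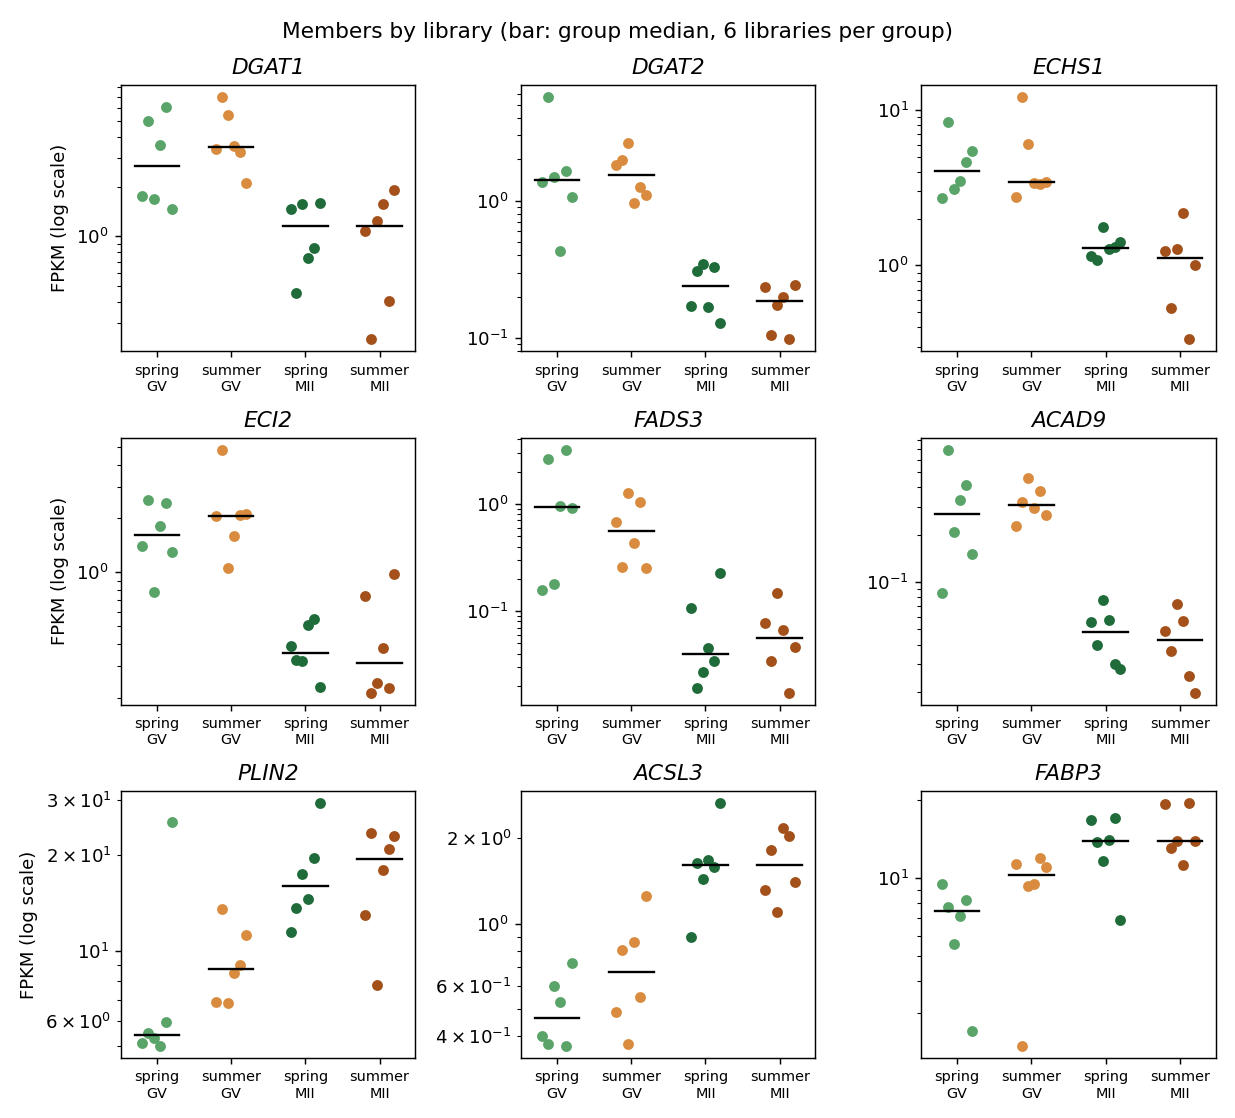
FPKM (log scale) of 9 genes in each of the 24 libraries, by group, with the median of each group as a bar. DGAT2, ECHS1, ECI2 and ACAD9 show no overlap between GV and MII libraries of the same season, and PLIN2 shows 1 spring GV library at 25.6 FPKM above the other 5.

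Peroxisomal acyl-CoA oxidases start the oxidation of very long chains. ACOX3 is annotated in the table over 12965113 bp of chromosome 6, so that 1 fragment is worth almost nothing in FPKM, and its highest value in any library was 0.0103 FPKM. It had a median of 3 fragments per library.

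ACACA and FASN make fatty acids from acetyl-CoA, through malonyl-CoA, and the ELOVL enzymes extend them. ACACA (chromosome 19, 13752492 to 13996059) did not exceed 0.1 FPKM and could be tested only as FPM, where it had 4.92 to 15.4 FPM (median 11.4) in spring GV and 0 to 5.08 (median 2.68) in spring MII oocytes and 3.15 to 18.6 (median 14.3) in summer GV and 1.93 to 7.59 (median 4.01) in summer MII oocytes. It fell in both seasons (log2 fold changes -1.67 ± 0.49 and -1.36 ± 0.44, adjusted p = 0.0203 and 0.0271). FASN went from a median of 0.153 FPKM (0.0970 to 0.467) to 0.0334 (0.01 to 0.110) in spring and from 0.122 (0.0475 to 0.496) to 0.0338 (0.01 to 0.172) in summer. Its fall passed after adjustment in spring (adjusted p = 0.0450 on log2(FPKM + 1), 0.00865 as FPM) and did not in summer (0.225 and 0.0546), with a median of 12 fragments per library.

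The elongases divided by direction. ELOVL4, which makes very long chains and had the highest FPKM of these enzymes, had medians of 0.954 and 0.950 FPKM in spring and summer GV and of 2.07 and 2.24 in spring and summer MII oocytes, with overlapping ranges and 10.1 FPKM in the highest spring MII library. It was 2.02 and 2.04 times as high in MII oocytes as FPM, with an adjusted p of 0.101 and 0.0839. ELOVL7 rose in spring without overlap of the groups, from 0.0615 to 0.113 FPKM (median 0.0715) to 0.143 to 0.629 (median 0.197), and did not pass in summer (FPM adjusted p = 0.0105 and 0.255). ELOVL1 and ELOVL2 were lower in MII oocytes. After adjustment they passed in summer (adjusted p = 0.00817 and 0.0119), when their stages did not overlap, and not in spring (0.0855 and 0.128). As FPM, ELOVL1 was called lower in both seasons and ELOVL2 in summer alone. On log2(FPKM + 1), the difference between the seasons had a limma p of 0.721 for ELOVL1 and 0.634 for ELOVL2. ELOVL3 and ELOVL5 were called in neither season.

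Desaturases introduce double bonds into fatty acids. FADS3 (chromosome 29, 41087530 to 41102448), a front-end desaturase that acts on sphingoid bases, had one of the largest falls of the group. It had 0.159 to 3.17 FPKM (median 0.940) in spring GV and 0.0191 to 0.226 (median 0.0398) in spring MII oocytes, and 0.252 to 1.25 (median 0.558) in summer GV and 0.0174 to 0.147 (median 0.0563) in summer MII oocytes. The groups were apart in summer and overlapped in spring, where 2 GV libraries were below 0.2 FPKM. On the FPM scale the log2 fold change was -3.59 ± 0.73 in spring and -3.02 ± 0.52 in summer (limma adjusted p = 0.00226 and 0.000598). FADS6 varied widely within each stage, from the lowest value of the table to 2.19 FPKM in spring GV oocytes, and its fall passed after adjustment as FPM in summer alone (-2.58 ± 0.83, adjusted p = 0.0268).

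SCD, the stearoyl-CoA desaturase that makes oleate, was high in 1 library. In spring GV oocytes it had 11.2 FPKM in replicate 3, 2.48 in replicate 6 and at most 0.0832 in the other 4, and in the 18 libraries of the other groups at most 0.632. As fragments, replicate 3 had 736 and each of the other 5 spring GV libraries at most 15. The spring GV mean of 2.32 ± 4.48 FPKM (SD, n = 6) therefore stood beside means of 0.0860 to 0.150 in the other groups, and no comparison of SCD passed (limma log2 fold change -0.77 ± 0.54 from GV to MII in spring, adjusted p = 0.310, and 0.04 ± 0.10 in summer). Replicates 3 and 6 were the spring GV libraries with the highest sums of cumulus or granulosa cell markers, and the part of those cells in the SCD values was not tested. SCD5, its paralog of other tissues, had 13.7 FPM on average and was called in no comparison.

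**Figure D4:**
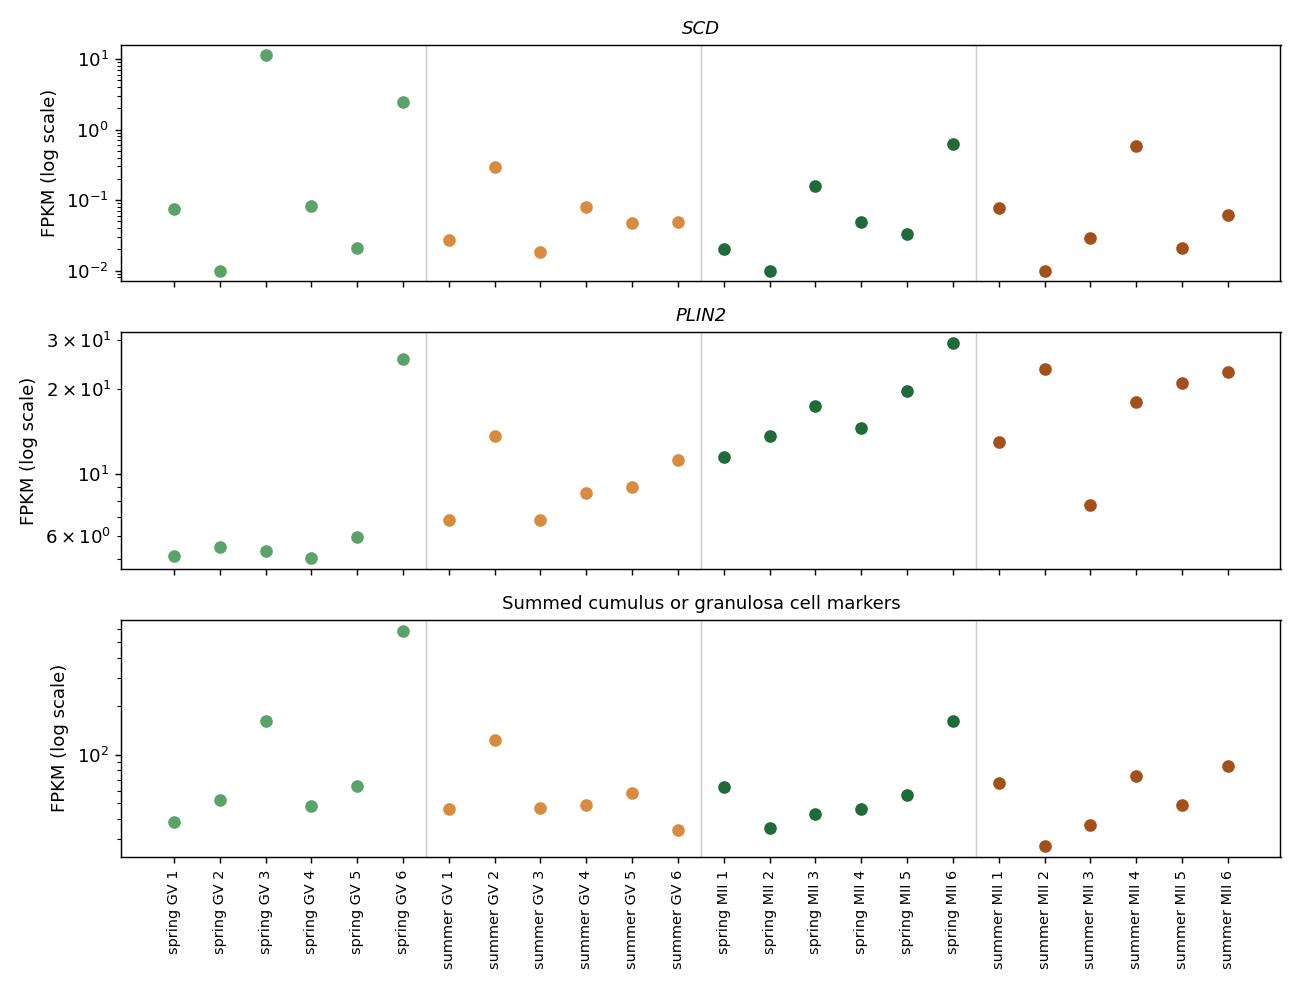
FPKM (log scale) of SCD, of PLIN2 and of the sum of 21 cumulus or granulosa cell markers in each of the 24 libraries. SCD is highest in spring GV replicates 3 and 6, PLIN2 in spring MII replicate 6 and spring GV replicate 6, and the marker sum in spring GV replicate 6 at 587 FPKM.

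DGAT1 and DGAT2 catalyse the last step of triglyceride synthesis and share no ancestry. DGAT2 (chromosome 15, 55940757 to 55973230) was called in both seasons and had the largest fall of the group in summer on the FPM scale. It had 0.431 to 5.70 FPKM (median 1.43) in spring GV and 0.129 to 0.348 (median 0.238) in spring MII oocytes, and 0.964 to 2.62 (median 1.54) in summer GV and 0.0979 to 0.245 (median 0.186) in summer MII oocytes. All MII libraries lay below all GV libraries in each season. The limma log2 fold change was -1.07 ± 0.29 in spring and -1.13 ± 0.16 in summer (adjusted p = 0.0179 and 0.000214, exact permutation p = 0.00216 in both), and on the FPM scale -2.91 ± 0.53 and -3.37 ± 0.33. Without spring GV replicate 2, which had the 5.70 FPKM, the spring value was -0.80 and the fold change no longer exceeded 2.

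DGAT1 (chromosome 14, 1795425 to 1804839) fell from a median of 2.65 FPKM (1.46 to 6.06) to 1.15 (0.455 to 1.59) in spring, with 2 MII libraries inside the GV range, and from 3.46 (2.11 to 6.97) to 1.16 (0.238 to 1.90) in summer without overlap. It was called in summer (-1.3 ± 0.27, limma adjusted p = 0.00324), and in spring it had an adjusted p of 0.0371 with a log2 fold change of -0.92 ± 0.29. Its limma p for a difference between the seasons was 0.351. The enzymes before DGAT moved less. AGPAT1, AGPAT3, AGPAT5, AGPAT9 and GPAM, which esterify the first and second positions of glycerol, had FPM log2 fold changes between -0.36 and 0.55 in both seasons with adjusted p of at least 0.361. LPIN3, a phosphatidate phosphatase, was called lower on the FPM scale in spring (-1.25 ± 0.42, adjusted p = 0.0392), with a median of 6.5 fragments per library.

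The perilipins coat the droplet surface. PLIN2 (chromosome 8, 25129178 to 25137855) had 5.01 to 25.6 FPKM in spring GV (median 5.40), 6.83 to 13.6 in summer GV (median 8.76), 11.48 to 29.2 in spring MII (median 16.0) and 7.78 to 23.5 in summer MII oocytes (median 19.5). Of the 6 spring GV libraries, 5 were below all spring MII libraries, and the sixth was replicate 6, the shallowest library of the series. PLIN2 was called higher in spring, with a log2 fold change of 1.15 ± 0.37 (limma adjusted p = 0.0397, exact permutation p = 0.0152), and in summer its log2 fold change was 0.81 ± 0.27 (adjusted p = 0.0393, permutation p = 0.0216). Without the 3 libraries of low mapping the values were 1.34 and 0.92, and without spring MII replicate 6 alone the spring value was 0.996 and no longer over 2-fold. Between the seasons the change on log2(FPKM + 1) differed with a limma p of 0.480. As FPM, PLIN2 was called in neither season, although its rise had a limma adjusted p under 0.05 in both. Its mean went from 165 to 292 FPM in spring and from 180 to 293 FPM in summer. Without the 3 libraries of low mapping it was called as FPM in spring and not in summer.

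PLIN5, which links droplets with mitochondria in oxidative tissues, went from a median of 0.178 FPKM (0.0639 to 0.301) in spring GV to 0.0144 (0.01 to 0.0650) in spring MII oocytes and from 0.0618 (0.01 to 0.156) in summer GV to 0.01 (0.01 to 0.0270) in summer MII oocytes. Of the 6 summer MII libraries, 5 had no fragment of it. Its fall had a limma adjusted p of 0.0107 in spring and 0.0638 in summer on log2(FPKM + 1), and of 0.00131 and 0.0234 on the FPM scale, from a median of 1.5 fragments per library. PLIN3, of similar function to PLIN2 in cells with few droplets, had medians of 0.154 and 0.175 FPKM in GV and 0.0432 and 0.0523 FPKM in MII oocytes and passed after adjustment as FPM in summer alone (log2 fold change -1.40 in both seasons, adjusted p = 0.127 and 0.0387).

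The patatin-like lipases break down stored lipid and phospholipid. PNPLA2, the adipose triglyceride lipase, had 0.212 to 2.51 FPKM in spring GV (median 0.689), 0.115 to 0.967 in summer GV (median 0.316), 0.01 to 0.969 in spring MII (median 0.359) and 0.0304 to 0.614 in summer MII oocytes (median 0.175). The groups overlapped, and no comparison passed (limma log2 fold changes -0.37 ± 0.26 and -0.15 ± 0.15 from GV to MII). PNPLA6, a lysophospholipase, was called lower on the FPM scale in both seasons (-1.43 ± 0.64 and -2.0 ± 0.45), with adjusted p = 0.109 and 0.00352. PNPLA1 had a median of 2 fragments per library, and PNPLA4 was called lower as FPM in summer with an adjusted p of 0.0856. Of the members not named above, PLIN1, ACSL1, ACOT11, ACOT13 and AGPAT2 were called in neither season on either scale. ACSS1, ACSS3, ACOT12 and LPIN1 were tested only as FPM and called in neither season. AGPAT4 was tested on neither scale. As FPM in summer, ACOT13 and ACOX3 had an adjusted p under 0.05 with less than a 2-fold fitted change (-0.93 ± 0.34 and -0.85 ± 0.25, adjusted p = 0.0445 and 0.0165), and ELOVL6 was called lower as FPM in summer (-1.43 ± 0.53, adjusted p = 0.0481).

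**Figure D5:**
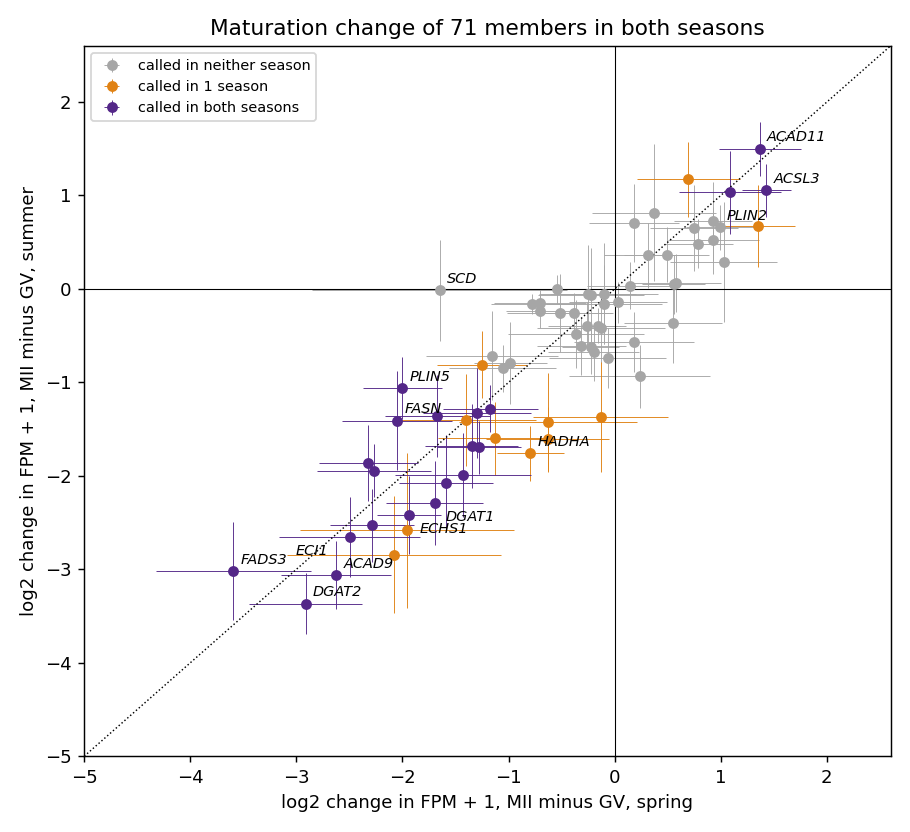
Log2 change in FPM + 1 from GV to MII oocytes in summer against that in spring for 71 of the 72 genes, with standard errors; the dotted line marks equal change. Most points lie near the line, the 18 genes called lower in both seasons stand at the lower left, and SCD lies away from it.

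The study asked whether summer heat changes the oocyte transcriptome, and the seasons were compared within each stage. With Partek's test, at p under 0.05 and a fold change over 2, it reported genes that differed in both stages. The limma calls on log2(FPKM + 1) were far fewer, 3 of 9526 genes in GV and 4 in MII oocytes. They come from another test and measure of fold change and do not stand for the study's season result. No member was called in summer against spring in GV oocytes, where 0.0315% of all genes were, and none had an adjusted p under 0.05. A gene at or under 1 FPKM in every library cannot change by over 2-fold on log2(FPKM + 1), and most members average less than that. For members that stay under this level, the lack of a call was fixed in advance and shows nothing about season. At an unadjusted limma p under 0.05 there were 2 of 62, against 1.55% of all genes. PLIN5 was lower in summer GV oocytes, at a median of 0.0618 against 0.178 FPKM with overlapping ranges (log2 fold change -0.14 ± 0.05, p = 0.0194, adjusted p = 1, exact permutation p = 0.0303), and was the 1 member called on the FPM scale (-1.20 ± 0.45), where 0.777% of all genes were called. Without the 3 libraries of low mapping its p was 0.0681. HADHA was higher in summer GV oocytes, with a median of 0.941 FPKM (0.682 to 1.14) against 0.498 (0.422 to 0.920), a log2 fold change of 0.29 ± 0.13 (p = 0.0428, adjusted p = 1, exact permutation p = 0.0108). Over 25 alternative settings the unadjusted p of HADHA was under 0.05 in 10 and that of PLIN5 in 22. The median difference of the members between seasons was 0.03 on the log2 scale, and that of all genes was 0.01.

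In MII oocytes no member was called either, where 0.0420% of all genes were called on log2(FPKM + 1) and 0.398% on the FPM scale, with 0 of 72 members among the latter. The limit for members under 1 FPKM held here too on log2(FPKM + 1). The only member with an unadjusted limma p under 0.05, where 2.11% of all genes had one, was CPT1B, at a median of 0.0751 FPKM (0.0507 to 0.106) in summer against 0.124 (0.0725 to 0.165) in spring (log2 fold change -0.06 ± 0.02, p = 0.0331, adjusted p = 1, exact permutation p = 0.0368). It passed in 10 of 25 alternatives. DGAT2, ECHS1, ACSL3 and PLIN2 differed between the seasons in MII oocytes by -0.08 ± 0.06, -0.21 ± 0.20, 0.01 ± 0.17 and -0.02 ± 0.29 on the log2 scale, and in GV oocytes by -0.02 ± 0.32, 0.06 ± 0.33, 0.18 ± 0.14 and 0.32 ± 0.36. The standard errors leave room for differences of some size, so that equal levels are not shown.

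The change from GV to MII oocytes was also compared between the seasons in 1 fit of all groups. None of the members was called, where 0.210% of all genes were, and 2 had an unadjusted p under 0.05, where 1.80% of all genes had one. HADHA fell more in summer than in spring, by -0.37 ± 0.15 on the log2 scale with a limma p of 0.0202, and PLIN5 fell less, by 0.12 ± 0.06 with a limma p of 0.0372. Both had an adjusted p of 1. PLIN5 began lower in summer GV than in spring GV oocytes. In summer MII oocytes it lay at or near the lowest value of the table, so it could fall little further. Both genes also differed between the seasons in GV oocytes, and the same GV libraries enter here. These are therefore not separate results. As FPM, HADHA differed by -0.96 ± 0.43 with a limma p of 0.0343 and was not called. On that scale 1 of the 72 members was called, where 1.74% of all genes were. The summer and spring changes use separate libraries, and 52 of the 62 members had the same sign in both, or 83.9%, where 85.5% of all genes did.

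Other genes of the same pathways were listed by symbol for comparison. They were 65 tested genes of carnitine handling, oxidation, synthesis, droplets, uptake and regulation. In spring none was called higher and 3 lower, against 3.57% and 8.25% of all genes. In summer none was called higher and 5 lower, against 2.20% and 9.26%. At a limma adjusted p under 0.05, 7 were higher and 9 lower in spring, against 9.45% and 14.7% of all genes. In summer 2 were higher and 16 lower, against 7.67% and 23.1%. Ordered by the larger of their 2 seasonal p-values, the falls with the smallest were those of NR1H3, the oxysterol receptor that activates lipid synthesis genes, of ETFB, a subunit of the flavoprotein that takes electrons from the acyl-CoA dehydrogenases, and of ACAA1, the peroxisomal thiolase. NR1H3 fell from 13.2 ± 4.68 to 2.91 ± 1.21 FPKM (SD, n = 6) in spring and from 13.2 ± 3.42 to 3.39 ± 1.58 in summer, with limma log2 fold changes of -1.86 ± 0.28 and -1.74 ± 0.26. ETFB fell from 2.24 ± 1.0 to 0.592 ± 0.206 and from 2.92 ± 0.458 to 0.583 ± 0.337 FPKM, and ACAA1 from 4.17 ± 3.90 to 0.275 ± 0.237 and from 3.20 ± 1.57 to 0.238 ± 0.206 FPKM. CIDEA, a protein of droplet fusion, had a smaller p than NR1H3 and ACAA1 in summer and a larger one in spring, and fell from 1.99 ± 1.49 to 0.359 ± 0.133 FPKM in spring and from 1.81 ± 0.531 to 0.241 ± 0.126 in summer (limma adjusted p = 0.0360 and 0.000134). By the same order, the rises shared by both seasons with the smallest p were those of CROT, the peroxisomal carnitine octanoyltransferase (2.15 ± 0.503 to 4.97 ± 1.22 FPKM in spring, 2.29 ± 0.201 to 4.85 ± 1.32 in summer), and of MUT, the methylmalonyl-CoA mutase (0.247 ± 0.0587 to 0.623 ± 0.183 and 0.262 ± 0.0562 to 0.558 ± 0.150), both with an adjusted p under 0.05 in each season, and of CBR4, of mitochondrial fatty acid synthesis, which passed after adjustment in spring (adjusted p = 0.0115) and not in summer (0.0680), and as FPM in both (0.0183 and 0.0434).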

How the data were processed

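The authors aligned the reads with STAR 2.5.3a (assembly UMD3.1.1 of the cow) after quality control with FastQC, and deposited FPKM per gene and library (Partek in the submitters' notes); the counting tool, its use of strand and the annotation are not given in the sources used here. All deposited FPKM columns sum to 86768.1 to 86768.2 and none is under 0.01. From them, whole fragments were recovered as (value - 0.01) times span, and 98.5% of 83594 values kept out of the solution lay within 0.1 of a whole number (20% by chance; 12 simulated libraries of 4000 genes were solved). The FPM scale was fitted as log2(FPM + 1) over 11063 genes above 1 FPM. Coordinates are those of the file.

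Genes over 0.1 FPKM in at least 1 library were fitted with limma 3.58.1 in R 4.3.3 on log2(FPKM + 1), with the spread following mean expression and only the compared groups in the fit (all 4 for the season difference), and adjusted by Benjamini-Hochberg over all 9526 genes. The fit was tested on simulated data. Permutation tests enumerate the 924 assignments of 6 and 6 libraries, are two-sided, and cannot go below 0.00216. Tables and plots were made in Python 3.11.15 with numpy 2.4.6, pandas 2.3.3 and matplotlib 3.10.9. Partek's own test was not used here.

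The members, roles and comparison lists were chosen with earlier results of these data known. Of 89 other pathway genes listed, 74 are in the table and 65 were tested. Named with values were members called in both seasons or in 1, the 5 with the smallest p among those passing adjustment in both seasons below a fold change of 2, the highest of each role, up to 5 per season comparison at p under 0.05, and 10 preset genes; further members named on the FPM scale were chosen after their values were seen. Whether equal replicate numbers mean the same cow is not stated, so p-values measure the spread between pools. Sequences were not used here. Alternatives were other pseudocounts, filters, scalings, fits, library sets, a replicate block, robust moderation and adjusted p. The values of 1 member are not reported here and are left out of 2 plots.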

Additional observations from a re-analysis of the deposited data

Results flagged for a closer look

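For 25 of the members named by rule, the 6 libraries of each group were searched for a highest or lowest value whose gap to the next on log2(FPKM + 1) exceeded Dixon's critical value for 6 samples as a share of the group's range. Of 100 groups, 13 had one. The groups come from the same 24 libraries, so the 13 are not independent and are set against no chance rate. All 13 were high values. Of them, 10 lay in spring GV replicate 6, spring MII replicate 6 or summer GV replicate 2, the libraries of low mapping. Their summed cumulus or granulosa cell markers were 587, 162 and 123 FPKM, and in summer GV replicate 2 the oocyte markers were high as well. The part of depth and of other cells in these values was not tested.

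In spring GV replicate 6, the FPKM was 10.82 for ACOT9, 0.1788 for CPT1A, 4.405 for ELOVL4 and 25.56 for PLIN2. In spring MII replicate 6 it was 7.177 for ACOT9, 0.5746 for CPT1A, 0.7454 for HADHA and 0.6324 for SCD. In summer GV replicate 2 it was 0.4956 for FASN and 0.2938 for SCD. In summer MII oocytes, FADS6 reached 0.952 in replicate 3, SCD 0.5821 in replicate 4 and PLIN5 0.02703 in replicate 1. That replicate was the only summer MII library with any fragment of PLIN5, so any value above the lowest would have been flagged.

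The change from GV to MII oocytes differed between the seasons at an unadjusted limma p under 0.05 for HADHA, by -0.3717 on the log2 scale (summer change minus spring change), and for PLIN5, by 0.1228. Neither passed after adjustment. Both rest in part on the GV libraries in which these genes also differed between the seasons, and PLIN5 was at or near the lowest value of the table in summer MII oocytes. Over 36 alternatives the unadjusted p stayed under 0.05 in 33 for HADHA and in 18 for PLIN5.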

How the results depend on the processing

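The counts of called members rested on the scale of the values. In spring, 3 members were called, against 15 with a pseudocount of 0.1, 25 with none, 23 on the FPM scale and 5 without the 3 libraries of low mapping (FPM 32; FPM without spring GV replicate 3, 26). In summer 4 were called, against 17, 28 and 30 for the first 3 of these settings and 30 in both reduced FPM fits. Spring GV replicate 3 does not enter the summer fit, so leaving it out could not change the summer count or median. The median log2 fold change of the members was -0.1804, -0.3083 and -0.3733 in spring and -0.3196, -0.5661 and -0.5911 in summer for those 3 settings, and 0.1645 and 0.1074 for members averaging at least 1 FPKM. As FPM it was -0.4321 and -0.5009 without the libraries of low mapping, and -0.4838 in spring without spring GV replicate 3 (summer -0.5911). For summer against spring, 1 member was called in GV oocytes with no pseudocount, as FPM and as FPM without spring GV replicate 3, with medians of 0.198 with no pseudocount and -0.0874 as FPM without low mapping. In MII oocytes the FPM medians were -0.0812, and -0.1379 without low mapping. For the season difference 1 member was called with no pseudocount, as FPM and as FPM without low mapping, and 2 without spring GV replicate 3.

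Leaving out 1 library gave 2 to 6 called members in spring and 4 to 5 in summer. There were 2 without spring GV replicate 2 (DGAT2 lost), 6 without spring GV replicate 1 or 3, and 5 without replicate 6. DGAT1 joined in the last 3 of these fits. PLIN2 was not called in spring without spring MII replicate 6, nor ECI2 in summer without summer GV replicate 2.

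Whether equal replicate numbers pair the libraries was not settled. The correlations within such pairs were -0.44 to 0.76. In 8 of 24 pairs the library correlated best with its own number, out of 6 candidates each. Of these 8 pairs, 4 were among the 6 pairs of summer against spring MII. With a replicate block on FPKM the called members were unchanged in each comparison. With the block on FPM, 29 were called in spring and 30 in summer (medians -0.3733 and -0.5911) and 1 in each season comparison (PNPLA4 in MII oocytes, where the fit without the block called none) and in the season difference (MII median -0.0812).

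Quantile normalization raised the share of higher among all called genes from 30.2% to 46.2% in spring and from 19.2% to 42.4% in summer. Reversal was counted only for named members and comparisons with an unadjusted limma p under 0.05 in the main fit. Of 477 such values under other settings, none reversed, 345 kept their side of the threshold, 125 moved past it and 7 no longer passed. Comparisons with a larger p, such as the change of SCD from GV to MII oocytes, were left out, so their direction was not checked in this count. The causes were not tested. Members of few fragments are limited by counting.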
